A study of Mus musculus with 4 samples.

Results

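The clearance of dying cells was examined in primary microglia through 10 genes, Mertk, Timd4, Itgav, Itgb5, Gas6, Pros1, Mfge8, Elmo1, Dock1 and Gulp1. They were chosen by their known roles as receptors for apoptotic cells, as bridging molecules or as engulfment machinery, which is a rule that uses no measured value. Earlier results of these data were known when the choice was made. All 10 were found in the count tables, among 22046 protein-coding genes, and all 10 were among the 13811 genes that passed the filter on low counts (at least 10 counts summed over the libraries). Gulp1 passed with 11 counts in total.

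Poly-A RNA was sequenced from cultured microglia of male CD1 mouse pups aged 1 to 3 days. The cells came from mixed glial cultures supplemented with GM-CSF, in which trypsin was used to take off the astrocyte layer, and they were moved to a serum-free medium that held IL-34, TGFβ2, GM-CSF and cholesterol. The EGCG group received 1 µM of epigallocatechin gallate, a green tea flavanol, for 24 h, and the Vehicle group received the DMSO solvent for the same time, with 2 libraries in each group. The question addressed here is whether the RNA of the engulfment genes differed between the groups. Replicates 1 and 2 are called biological in the labels, with no word on litters or on whether same-numbered cultures were prepared together, so p-values measure only the spread between these libraries, which may in part be technical.

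Totals were 33805071 and 34300679 counts in the Vehicle and EGCG libraries of replicate 1 and 36307930 and 54970300 counts in those of replicate 2. The depth of the EGCG library was thus 1.02 times that of its vehicle library in replicate 1 and 1.51 times in replicate 2. Levels are given as counts per 1000000 counts (CPM), with library sizes scaled by edgeR's TMM method. A floor of 3 counts, which covers counting error only, corresponded to between 0.0544 and 0.0936 CPM. Differences between EGCG and vehicle within a replicate are given as log2 ratios of scaled counts with the exact 95% interval for a ratio of a pair of counts, again for counting error only.

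Apoptotic cells expose phosphatidylserine, which phagocytes recognise either directly, through receptors such as TIM-4, or through soluble bridging proteins that hold the dying cell to a receptor on the phagocyte. Gas6 and protein S link phosphatidylserine to the TAM receptor tyrosine kinases Tyro3, Axl and Mertk, whereas Mfge8 links it to alpha-v integrins. The signal converges on the ELMO and DOCK proteins, which activate the GTPase Rac and drive the actin cup around the target, and in the brain microglia use this route to remove dying neurons and newborn cells without inflammation.

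In these cultures most engulfment genes, like genes at large, differed less between EGCG and vehicle than between replicates. Over all genes tested the median absolute log2 difference was 0.377 and 0.353 between replicates, in Vehicle and EGCG, and 0.116 and 0.1 between treatments, in replicates 1 and 2. Mertk, Gas6, Pros1 and Elmo1 were between 1.47 and 2.01 times as high in replicate 2 as in replicate 1 in both treatments, while Mfge8 was 9.45 times lower in vehicle and 6.24 times lower in EGCG. Timd4, a gene of low level, was the only member whose EGCG libraries both lay above both vehicle libraries, at 2.62 and 1.21 CPM against 1.16 and 0.682. With treatment as the only term, edgeR's quasi-likelihood test gave none of the 10 members an unadjusted p under 0.05, where 16 of all genes tested (0.116%) had one. That fit has little power where replicates differ this much, so an absent call in it does not show an unchanged level. In the same test with the replicate number as a block Timd4 alone of the 10 had an unadjusted p under 0.05, as did 444 of all genes tested (3.21%).

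The identity of the cells was checked with marker genes. All 11 microglia markers had counts in every library, with summed levels of 5846.5 and 6456.5 CPM in the Vehicle and EGCG libraries of replicate 1 and of 8959.0 and 8699.3 CPM in those of replicate 2. C1qa, which encodes a chain of complement C1q, had the highest mean of them, at 1443.4, 1687.6, 3154.6 and 2794.2 CPM in the same order. Markers of border macrophages were also present, 5 of 6 in every library, with sums of 668.1, 767.7, 497.7 and 458.6 CPM. The microglia sums were thus higher in replicate 2, although some of the markers, among them Itgam, Tmem119 and Trem2, were lower there in both treatments. The border macrophage markers had no common direction between replicates or treatments. Pf4, with the highest mean, fell from 451.5 and 519.7 CPM in replicate 1 to 142.5 and 129.7 CPM in replicate 2, while Mrc1 rose from 213.5 and 244.5 to 353.6 and 326.9 CPM, and without Pf4 the sums were 216.6, 248.0, 355.3 and 328.8 CPM. The counts in the same order were 36, 68, 46 and 69 for Folr2, 17, 19, 6 and 28 for Lyve1 and 45, 26, 10 and 7 for F13a1.

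Stromal markers differed between the replicate 1 libraries, in part to near absence. Of 10 stromal markers 8 had counts in every library, and the sums were 3118.5 and 1969.5 CPM in the Vehicle and EGCG libraries of replicate 1 and 871.8 and 944.1 CPM in those of replicate 2, and the most abundant marker, Fn1, made up 2409.6, 1710.8, 543.0 and 604.5 CPM of these. Without Fn1 the sums were 709.0, 258.7, 328.8 and 339.5 CPM, lowest in EGCG replicate 1. Col1a1 (named, like the other markers of this paragraph, after its values were seen) had 3962 and 4 counts in the Vehicle and EGCG libraries of replicate 1 and 1344 and 2040 counts in those of replicate 2. In replicate 1 Col1a2 went from 4469 counts in Vehicle to 3 in EGCG, Col3a1 from 4417 to 6, Dcn from 788 to 2 and Lum from 70 to 0, and the astrocyte marker Gja1 went from 160 to 1. These 6 genes were therefore nearly absent from EGCG replicate 1 and present in the other 3 libraries, whereas Eln (1088, 1, 3 and 5 counts) and Ogn (46, 0, 1 and 1) were near absent from all but Vehicle replicate 1. Postn, at 253.0 and 253.8 CPM in the replicate 1 libraries, and Pdgfra, at 3.72 and 4.40 CPM, did not fall.

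Markers of other cell types had lower sums than these. Astrocyte markers, 5 of 7 in every library and led by Aldh1l1, summed to between 13.8 and 19.4 CPM. Without Aldh1l1 the sums were 9.11 and 2.4 CPM in the Vehicle and EGCG libraries of replicate 1. Those of replicate 2 were 4.8 and 5.66 CPM, so the lowest was in EGCG replicate 1. Oligodendrocyte lineage markers, 4 of 6 in every library summed to between 111.2 and 146.0 CPM, with Cspg4 ahead of Mbp in replicate 1 and Mbp ahead in replicate 2. Endothelial markers, 3 of 5 in every library, summed to between 5.74 and 19.7 CPM with Cldn5 at 0 in all 4 libraries. The one with the highest mean, Pecam1, was at 0.0610 and 0.0936 CPM in Vehicle and EGCG replicate 1 and at 15.8 and 13.4 CPM in replicate 2. Without Pecam1 the sums were 7.65, 5.65, 3.9 and 3.08 CPM in the same order, and thus higher in replicate 1. Neuronal markers, 3 of 5 in every library and led by Snap25, summed to 17.8 and 16.7 CPM in Vehicle and EGCG replicate 1 and to 0.928 and 1.16 CPM in replicate 2. Without Snap25 the sums were 0.579, 0.343, 0.409 and 0.508 CPM in the same order, with no common direction between replicates. The part of these populations in the levels of the engulfment genes was not tested, and in bulk RNA fewer cells of a type and less RNA per cell cannot be told apart.

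**Figure D1:**
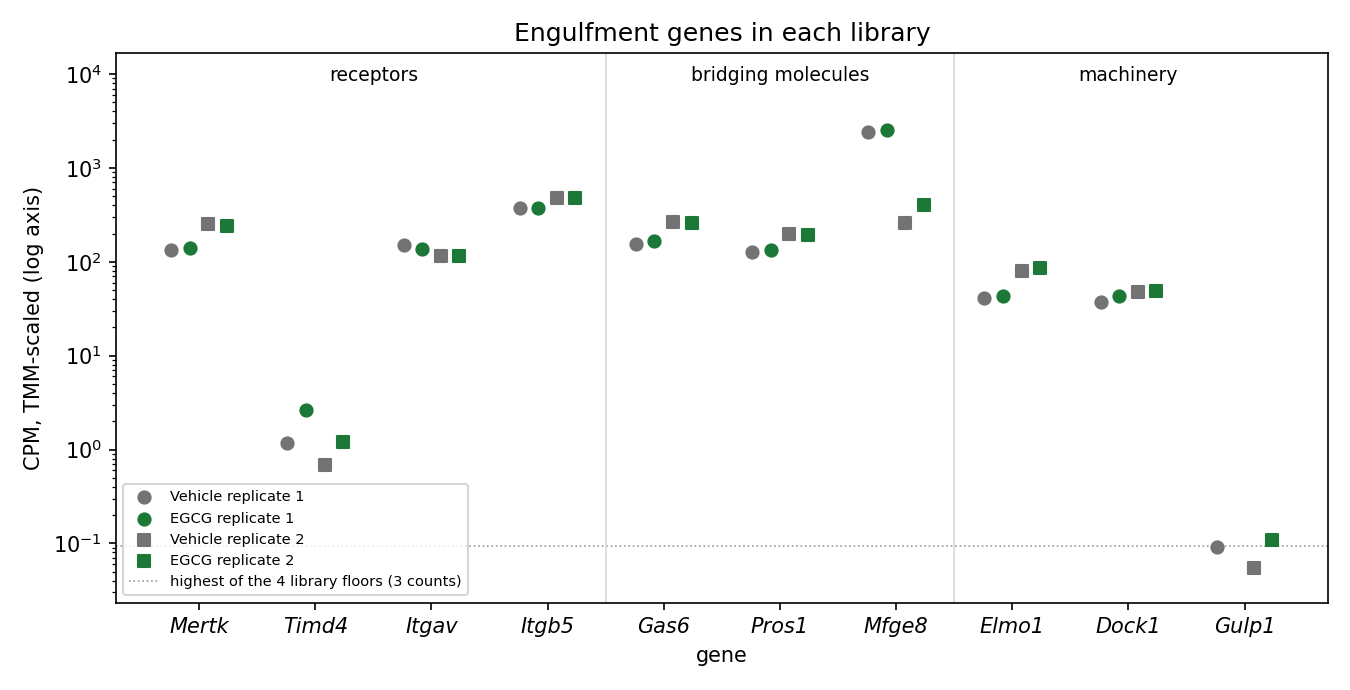
Level of the 10 engulfment genes in each library, in TMM-scaled CPM on a log axis, with circles for replicate 1, squares for replicate 2, grey for Vehicle and green for EGCG. The points of the 8 members other than Timd4 and Gulp1 separate by replicate (as do those of 76.5% of all genes tested), most widely for Mfge8, those of Timd4 separate by treatment (2.62 and 1.21 in EGCG, 1.16 and 0.682 in Vehicle), and Gulp1, at 0 and so not drawn in EGCG replicate 1, lies near the dotted floor.

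Mertk (ENSMUSG00000014361, chromosome 2, 128698956 to 128802894, plus strand; coordinates are those of the files, on GRCm38) encodes the TAM receptor that triggers engulfment in many macrophages. It was at 133.1 and 141.0 CPM in the Vehicle and EGCG libraries of replicate 1 and at 253.7 and 242.4 CPM in those of replicate 2. The replicate 2 libraries were high and the groups overlapped. The means were 193.4 ± 85.2 CPM in Vehicle and 191.7 ± 71.7 in EGCG (SD, n = 2 libraries each), which gave a log2 fold change of -0.01 (standard error 0.45). Within replicates the log2 ratio of Mertk was 0.08 (interval 0.02 to 0.14) in replicate 1 and -0.07 (-0.10 to -0.03) in replicate 2. Under TMM both differences exceeded counting error and had opposite signs. With total counts in place of TMM the ratio in replicate 1 was 0.03, so whether it exceeded counting error depended on the scaling.

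The integrin genes were steadier than Mertk. Itgav (ENSMUSG00000027087, chromosome 2, 83724397 to 83806916, plus strand), the alpha-v chain that binds Mfge8 through its partner chains, ranged from 116.6 CPM in EGCG replicate 2 to 152.0 in Vehicle replicate 1. Itgb5 (ENSMUSG00000022817, chromosome 16, 33829665 to 33949338, plus strand), the beta-5 chain that pairs with alpha-v, ranged from 371.9 CPM in EGCG replicate 1 to 480.5 in Vehicle replicate 2. For both genes the groups overlapped, and from the lowest to the highest library they spanned 1.30-fold and 1.29-fold, against 1.91-fold for Mertk. Dock1 spanned a similar 1.33-fold. The log2 fold change was -0.09 for Itgav (standard error 0.20) and -0.01 for Itgb5 (standard error 0.23). Itgav was lower in EGCG within replicate 1, with a log2 ratio of -0.16 (interval -0.22 to -0.10), and in replicate 2 the interval of -0.06 to 0.05 included 0. The log2 ratio of Itgb5 in replicate 1 was 0.00, and -0.06 with total counts in place of TMM.

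Timd4 (ENSMUSG00000055546, chromosome 11, 46810800 to 46844332, plus strand) encodes TIM-4, a tethering receptor that binds phosphatidylserine directly. It had 38 and 84 counts in the Vehicle and EGCG libraries of replicate 1 and 25 and 67 counts in those of replicate 2, the last in a library 1.51 times as deep as its vehicle. Every library was above the floor, and the EGCG libraries did not overlap with the vehicle libraries, although EGCG replicate 2 (1.21 CPM) lay close above Vehicle replicate 1 (1.16 CPM). Of all genes tested, 882 (6.39%) had both EGCG libraries above both vehicle libraries, so 1 of 10 members is near that background. The log2 ratio of Timd4 was 1.18 (interval 0.61 to 1.77) in replicate 1 and 0.83 (0.15 to 1.56) in replicate 2. In edgeR's test over all genes the log2 fold change of Timd4 was 1.05 (standard error 0.62), for which the unadjusted p was 0.165.

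With the replicate block the log2 fold change of Timd4 was 1.01 in edgeR (standard error 0.32), and the unadjusted p was 0.0243. After Benjamini-Hochberg adjustment over all genes, the quasi-likelihood test of edgeR with the block gave an adjusted p of 0.995, and the gene was higher in EGCG in 2 of 2 replicates. In that fit 444 genes (3.21%) had an unadjusted p under 0.05, 293 of them (2.12%) higher in EGCG. In DESeq2 with the block Timd4 had an unadjusted p of 0.124, and none of the 10 members was among the 153 genes (1.11%) with p under 0.05. Without EGCG replicate 1, the library with little collagen RNA, the log2 fold change of Timd4 was 0.40 and the unadjusted p 0.684 in edgeR's test, and without Vehicle replicate 2 these were 0.70 and 0.463. Without Vehicle replicate 1 they were 1.49 and 0.179, and without EGCG replicate 2 they were 1.48 and 0.136. The difference in Timd4 therefore passed the unadjusted threshold in edgeR with the block alone. Its size varied with the library left out, in fits that do not use the replicate numbers.

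Gas6 (ENSMUSG00000031451, chromosome 8, 13465374 to 13494490, minus strand) encodes a bridging ligand that activates the TAM receptors. It was at 153.9 and 168.3 CPM in the Vehicle and EGCG libraries of replicate 1 and at 265.5 and 256.0 CPM in those of replicate 2. Pros1 (ENSMUSG00000022912, chromosome 16, 62854307 to 62929346, plus strand), the gene of protein S, was at 126.2, 132.4, 196.7 and 194.8 CPM in the same order. Both ligands were thus highest in the libraries in which Mertk was highest. Their log2 fold changes were 0.02 each, with standard errors of 0.37 for Gas6 and 0.33 for Pros1, the groups overlapped, and with total counts in place of TMM both fold changes were -0.01. As for Mertk, the log2 ratio of Gas6 was positive in replicate 1 (0.13, interval 0.07 to 0.18) and negative in replicate 2 (-0.05, interval -0.09 to -0.02), and with total counts the ratio in replicate 1 was 0.07. Gas6 overlaps Tmem255b on the opposite strand. The libraries were strand-specific, the strand setting of the counter is not given in the sources used here, and Tmem255b (named for this overlap) had at most 70 counts in a library against at least 5050 for Gas6.

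Mfge8 (ENSMUSG00000030605, chromosome 7, 79133768 to 79149060, minus strand) encodes lactadherin, the secreted bridge to alpha-v integrins. It had 79696 and 81436 counts in the Vehicle and EGCG libraries of replicate 1 and 9419 and 22455 counts in those of replicate 2, which correspond to 2428.8, 2541.5, 257.0 and 407.0 CPM. The replicate 1 libraries were far above those of replicate 2 in both treatments. This is the opposite order to Mertk, Gas6 and Pros1. The means were 1342.9 ± 1535.7 CPM in Vehicle and 1474.3 ± 1509.3 in EGCG (SD, n = 2 libraries each), and the log2 fold change was 0.13 (standard error 1.39). Of all genes tested, 1068 (7.73%) were over 2-fold lower and 595 (4.31%) over 2-fold higher in replicate 2 in both treatments, and of the 10 members these were 1, Mfge8, and 0.

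Within replicates Mfge8 differed by unequal amounts. Its log2 ratio was 0.07 (interval 0.05 to 0.08) in replicate 1 and 0.66 (0.63 to 0.70) in replicate 2, where its level was the lower. With total counts in place of TMM the log2 ratio in replicate 1 was 0.01, which is below the TMM interval. Whether Mfge8 exceeded counting error in replicate 1 therefore depended on the scaling. Both intervals under TMM lay above 0, which among the 9 members other than Gulp1 held for Mfge8 and Timd4, and of all genes tested for 705 (5.10%). Both lay below 0 for none of these members (1.67% of all genes), and on opposite sides of 0 for 2, Mertk and Gas6 (5.77%). Such intervals are narrow for a gene with many counts. With the replicate block the log2 fold change of Mfge8 was 0.36 (standard error 0.15), and the unadjusted p was 0.0566 in edgeR and 0.236 in DESeq2. Whether the response differed between the replicates was not tested, since each replicate had 1 library per treatment. The counts are per gene and do not separate the 10 annotated transcripts of Mfge8.

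Elmo1 (ENSMUSG00000041112, chromosome 13, 20090596 to 20608353, plus strand) encodes a scaffold that acts with DOCK proteins as an exchange factor for Rac. It was at 40.7 and 43.2 CPM in the Vehicle and EGCG libraries of replicate 1 and at 79.9 and 86.7 CPM in those of replicate 2. Dock1 (ENSMUSG00000058325, chromosome 7, 134670654 to 135173639, plus strand), which encodes the catalytic partner DOCK180, was at 37.2, 42.7, 48.2 and 49.4 CPM in the same order. Elmo1 followed the replicate more strongly than Dock1, and EGCG was the higher library of each pair for both genes. The log2 fold change was 0.11 for Elmo1 (standard error 0.51) and 0.11 for Dock1 (standard error 0.19). The log2 ratio exceeded counting error in replicate 2 for Elmo1 (0.12, interval 0.05 to 0.18) and in replicate 1 for Dock1 (0.20, interval 0.09 to 0.31).

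Gulp1 (ENSMUSG00000056870, chromosome 1, 44551511 to 44796838, plus strand), an adaptor that binds the tails of engulfment receptors, was barely detected. Its counts were 3 in Vehicle and 0 in EGCG in replicate 1, and 2 in Vehicle and 6 in EGCG in replicate 2. At this depth no difference between the groups was detectable, and no fold is given. The 0 in EGCG replicate 1 allows a level of up to 0.0936 CPM.

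**Figure D2:**
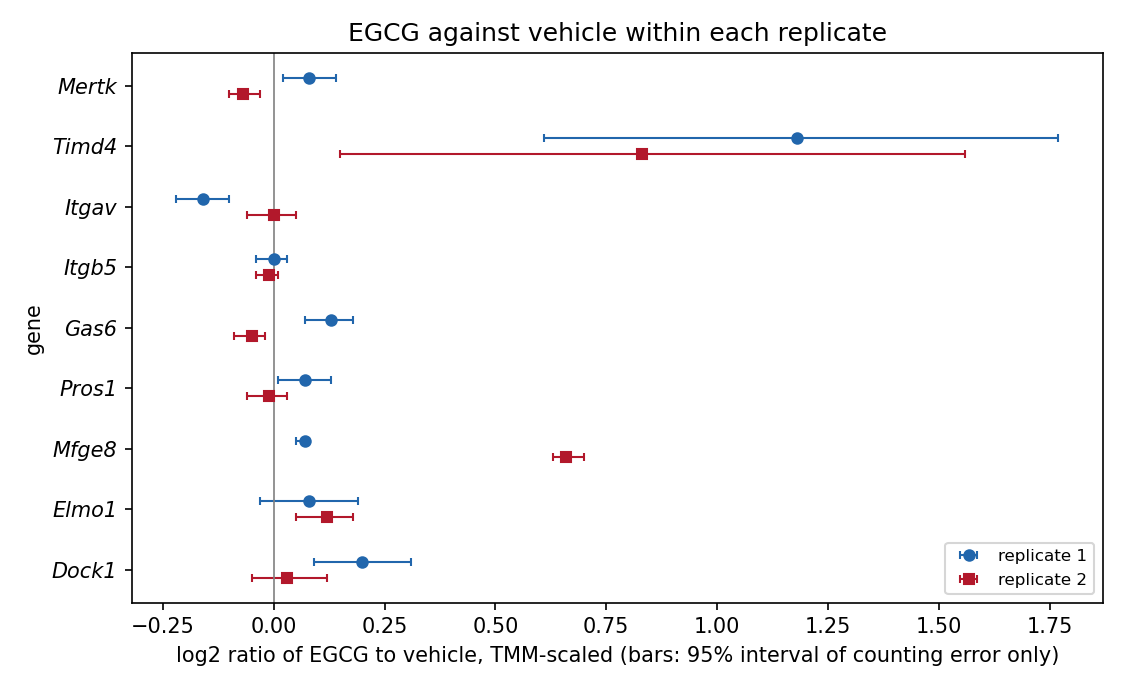
Log2 ratio of EGCG to vehicle within replicate 1 (blue circles) and replicate 2 (red squares) for 9 engulfment genes, from TMM-scaled counts, with bars for the exact 95% interval of counting error. The bars of Timd4 and Mfge8 lie above 0 in both replicates, and those of Mertk and Gas6 lie on opposite sides of 0.

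In the fit without the block, for 8 of the 9 members with a fold change, the log2 fold change was smaller than its standard error, as it was for 92.6% of all genes, the exception being Timd4. That standard error includes the difference between replicates. With the block in edgeR the fold change was the smaller for 4 of the 9 (Mertk, Itgb5, Gas6 and Pros1), against 64.0% of all genes. The standard errors given for edgeR were computed from the F statistic of its test, so these counts are not separate from its p-values. The 7 members other than Timd4, Mfge8 and Gulp1 had log2 fold changes from -0.09 to 0.11, with unadjusted p from 0.602 to 0.979 in edgeR's test. With each library left out in turn, in fits that do not use the replicate numbers, the sign of the fold change turned for 8 of the 9, Timd4 being the exception, and for 79.6% of all genes, and that of Mfge8 ranged from -1.73 to 2.52. The median log2 fold change was 0.02 over the 10 members (the fitted value of Gulp1 included) and 0.01 over all genes tested. After Benjamini-Hochberg adjustment the quasi-likelihood test of edgeR left no member under an adjusted p of 0.1, and no other gene tested (0.0%), and DESeq2 without the block left 1 gene (0.00724%), which was not a member. With the block that adjusted count in edgeR was 1 gene (0.00724%), and in DESeq2 it was 7 (0.0507%), with 0 of the 10 members in either. Higher in EGCG in both replicates were 4 of the 10 members, against 29.9% of all genes, and lower in both were 2, against 20.6%. None had both EGCG libraries below both vehicle libraries, against 5.51% of all genes.

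The difference between the vehicle libraries exceeded both EGCG differences for 8 of these 9 members, Timd4 being the exception, and for 71.3% of all genes. Between replicates, 6 of the 9 were higher in replicate 2 in both treatments, against 42.2% of all genes, and 3 (Timd4, Itgav and Mfge8) were lower, against 40.7%. The median log2 difference of replicate 2 from replicate 1 was 0.37 in Vehicle and 0.46 in EGCG over the 10 members, and 0.00 and 0.01 over all genes tested. The marker sums given above also differed between the replicates, and the part of cell composition in these differences was not tested.

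Levels of different genes were compared per gene length, as RPKM, which is CPM divided by the gene length in kilobases. Itgb5 had a median of 119.4 RPKM, Gas6 83.3, Mertk 44.2 and Pros1 40.0, and Mfge8 spanned 54.7 to 541.4 RPKM. Mfge8 thus had rank 1 of the 10 members in both libraries of replicate 1, and rank 4 in Vehicle and rank 3 in EGCG of replicate 2, where Itgb5 led. The ranges of Itgb5 and Gas6 did not overlap, and neither did those of Pros1 and Itgav (median 11.7 RPKM). Mertk and Pros1 overlapped, as did Elmo1 (median 4.89 RPKM) and Dock1 (4.87). Timd4 had a median of 0.546 RPKM and Gulp1 of 0.0194. By mean RPKM Mfge8 stood at percentile 99.2 of the genes tested, Itgb5 at 97.5, Gas6 at 96.3, Mertk at 93.0 and Timd4 at 24.8.

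Among the TAM receptors the leading gene depended on the replicate. Axl was at 92.0 and 96.7 RPKM in the Vehicle and EGCG libraries of replicate 1 and at 36.6 and 35.9 RPKM in those of replicate 2. Mertk was at 30.7, 32.5, 58.5 and 55.9 RPKM in the same order. Per length, Mertk was therefore 0.334 and 0.336 times as high as Axl in replicate 1 and 1.60 and 1.56 times as high in replicate 2. Tyro3, the remaining TAM receptor, was between 0.299 and 1.08 RPKM. The ratio of the ligands was steady, with Gas6 at 1.96, 2.04, 2.16 and 2.11 times the RPKM of Pros1 in the 4 libraries, and Gas6 was between 1.78 and 2.03 times as high as Mertk.

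Other members had a relative with a higher level per length. Dock2, the DOCK protein of blood cells, was between 4.64 and 5.82 times as high as Dock1 per length. Elmo2 was between 1.56 and 3.49 times as high as Elmo1 per length. In replicate 2 that order rests on the deposited gene lengths, 12580 bases for Elmo1 and 6652 for Elmo2. In CPM Elmo1 was there above Elmo2, at 79.9 and 86.7 against 77.1 and 71.6 in Vehicle and EGCG. In replicate 1 it was below Elmo2 in CPM too, at 40.7 and 43.2 against 74.6 and 79.6. Itgb1, another partner of alpha-v, was between 1.15 and 1.44 times as high per length as Itgb5, which itself was between 6.51 and 14.7 times as high as Itgb3. Itgb8 was at most 0.0606 RPKM and Itgb6 had no counts in the 4 libraries. Elmo3, Dock5 and Havcr1 were lower per length than Elmo1, Dock1 and Timd4 in 4 of 4 libraries. Edil3, which like Mfge8 encodes a phosphatidylserine bridge to integrins, was at most 0.116 RPKM, Timd2 had 1 count in all, and of the phagocytic receptors Megf10 had at most 3 counts in a library while Lrp1 was between 45.1 and 61.2 RPKM.

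**Figure D3:**
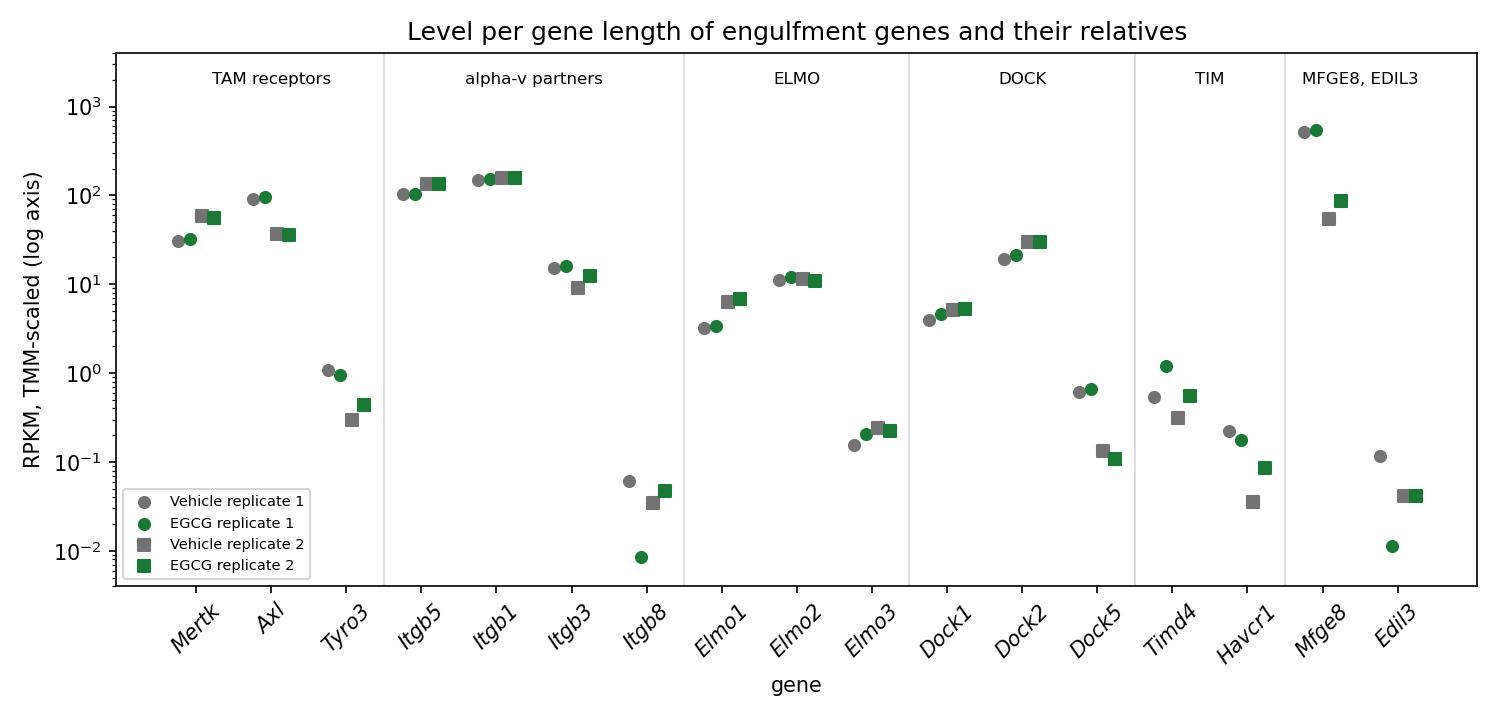
Level per gene length (RPKM, TMM-scaled, log axis) of engulfment genes and their relatives in each library, with circles for replicate 1, squares for replicate 2, grey for Vehicle and green for EGCG. Axl lies above Mertk in replicate 1 (92.0 against 30.7 RPKM in Vehicle) and below it in replicate 2 (36.6 against 58.5), and Dock2 and Elmo2 lie above Dock1 and Elmo1 in all 4 libraries.

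The other genes of the pathway were listed by role, 81 in all, of which 77 were tested. With treatment as the only term none had an unadjusted p under 0.05 in edgeR, and with the replicate block 6 did, 5 higher and 1 lower in EGCG, against 3.21% of all genes. Of 18 other receptors tested, the scavenger receptor gene Cd36 and the lipid sensor gene Trem2 passed with the block, both higher in EGCG. Cd36 had log2 ratios of 0.31 in replicate 1 and 0.47 in replicate 2, with an unadjusted p of 0.000999 in edgeR and a Benjamini-Hochberg adjusted p of 0.995 from the quasi-likelihood test of edgeR and of 0.00414 from DESeq2, both with the block. For Trem2 the log2 ratios were 0.17 and 0.12, with an unadjusted blocked p of 0.0449 in edgeR and 0.0384 in DESeq2. The receptors with the highest mean RPKM were Tyrobp (mean 1632.1), Cd14 (647.0) and Itgb2 (463.9).

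Among 3 tested alpha-v partner chains, Itgb3 had log2 ratios of 0.07 and 0.43 and an unadjusted blocked p of 0.0466 in edgeR and 0.0421 in DESeq2. Of 11 other bridging and opsonin genes tested, Anxa1, which encodes annexin A1, had log2 ratios of 0.17 and 0.32 and a blocked p of 0.0177 in edgeR and 0.000626 in DESeq2. Ptx3, a pentraxin that binds dying cells, was the gene lower in EGCG, with a blocked p of 0.0476 in edgeR but 0.0956 in DESeq2. It had 70 and 6 counts in the Vehicle and EGCG libraries of replicate 1. In those of replicate 2 it had 253 and 247 counts, the EGCG library being 1.51 times as deep. The log2 ratios of Ptx3 were -3.51 in replicate 1 and -0.62 (interval -0.88 to -0.37) in replicate 2. Most of the difference in Ptx3 lay in replicate 1, where Col1a1 also differed but Postn and Pdgfra did not fall. Whether these differences were related was not tested. C1qa (mean 2182.6 RPKM), C1qb (862.9) and Lgals3 (774.3) were the bridging genes with the highest mean per length.

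None of the 28 other machinery genes passed in either edgeR fit, and the highest means per length were those of Rab7 (mean 277.6 RPKM), Cdc42 (254.9) and Abca1 (164.2). Among 8 genes of Mertk shedding and induction, the nuclear receptor gene Pparg had log2 ratios of 0.54 and 0.27 and a blocked p of 0.0388 in edgeR but 0.227 in DESeq2, and Adam17, which encodes the sheddase of Mertk, led by mean level at 45.5 RPKM, followed by Adam10 (41.2) and Rxra (34.3). None of 9 genes of find-me and do-not-eat-me signalling passed in either edgeR fit, while the receptor gene Gpr34 had a blocked p of 0.0436 in DESeq2 and 0.0576 in edgeR, and Sirpa (465.1 RPKM), Cx3cr1 (98.9) and P2ry6 (66.6) had the highest means. The median log2 fold change over the 77 genes was 0.02 without the block, against 0.01 over all genes tested.

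Since Mertk, Gas6 and Pros1 differed together between replicates, Mfge8 in the opposite direction, and Timd4 had EGCG libraries above the vehicle libraries, their promoters are shown. Elmo1, which also differed like Mertk, has 2 such windows and is given by its counts of motifs only. The sequences are from RefSeq on GRCm38.p6, written 5′ to 3′ along the gene's own strand from 250 bases before to 50 bases after the RefSeq start, and all 10 members had one. Capitals mark the GC box GGGCGG or its reverse complement CCGCCC, which overlap each other where they run together. The windows are chr2:128698665-128698964 (plus strand) for Mertk, chr8:13494486-13494785 (minus) for Gas6, chr16:62854057-62854356 (plus) for Pros1, chr7:79149011-79149310 (minus) for Mfge8 and chr11:46810549-46810848 (plus) for Timd4.
Mertk: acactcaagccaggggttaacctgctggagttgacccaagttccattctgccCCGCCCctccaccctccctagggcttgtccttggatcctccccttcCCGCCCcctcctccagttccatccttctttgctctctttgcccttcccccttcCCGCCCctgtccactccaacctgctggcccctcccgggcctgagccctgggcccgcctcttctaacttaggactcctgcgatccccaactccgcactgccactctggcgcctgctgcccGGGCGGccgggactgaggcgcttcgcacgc
Gas6: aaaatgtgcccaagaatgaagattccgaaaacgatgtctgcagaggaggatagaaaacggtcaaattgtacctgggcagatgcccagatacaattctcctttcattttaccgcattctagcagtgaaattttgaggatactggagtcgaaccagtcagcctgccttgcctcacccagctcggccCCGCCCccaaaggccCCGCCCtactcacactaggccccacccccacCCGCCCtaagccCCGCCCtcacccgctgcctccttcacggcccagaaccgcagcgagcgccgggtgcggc
Pros1: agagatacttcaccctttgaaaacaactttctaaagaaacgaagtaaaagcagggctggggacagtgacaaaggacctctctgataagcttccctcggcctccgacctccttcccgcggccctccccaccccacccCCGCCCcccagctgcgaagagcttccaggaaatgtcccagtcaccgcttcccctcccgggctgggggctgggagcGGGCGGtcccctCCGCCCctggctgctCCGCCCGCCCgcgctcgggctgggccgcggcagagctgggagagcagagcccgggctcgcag
Mfge8: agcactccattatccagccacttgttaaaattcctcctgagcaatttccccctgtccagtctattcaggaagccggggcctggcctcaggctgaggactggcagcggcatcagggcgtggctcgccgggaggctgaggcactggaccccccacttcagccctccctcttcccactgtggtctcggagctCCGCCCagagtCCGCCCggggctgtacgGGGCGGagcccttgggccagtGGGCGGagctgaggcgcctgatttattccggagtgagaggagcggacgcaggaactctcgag
Timd4: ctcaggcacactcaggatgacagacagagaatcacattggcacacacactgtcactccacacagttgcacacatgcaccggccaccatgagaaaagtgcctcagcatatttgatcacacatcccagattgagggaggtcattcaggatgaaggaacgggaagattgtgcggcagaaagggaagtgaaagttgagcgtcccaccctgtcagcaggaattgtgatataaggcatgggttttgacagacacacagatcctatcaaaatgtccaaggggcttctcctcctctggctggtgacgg

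A GC box on either strand occurred 4 times in the window of Mertk, 4 in that of Gas6, 5 in that of Pros1 and 4 in that of Mfge8, and it was not found in that of Timd4. At least 1 copy was present in 35.7% of 32851 promoters of the same length and at least 4 copies in 5.49%. The genes that differed in opposite directions between replicates thus shared this feature. Of the 10 members 9 had at least 1 copy in a window. Itgb5 and Dock1, also higher in replicate 2 in both treatments, had 3 copies each, and Itgav and Gulp1 had 1 each. The share over all promoters was not matched for GC content or level of expression. The letters TATAAA or TTTATA were not found in these 5 windows, and of the other members 1 of the 2 windows of Elmo1 held them (13.6% of all promoters do). GAGGAA or its complement TTCCTC, the core of a purine-rich box, occurred in the windows of Mfge8, Itgav and Dock1 and in 1 of those of Elmo1 (28.3% of all promoters), and AGGTCA or TGACCT, a nuclear receptor half-site, in that of Timd4 alone (16.3%). The windows of Elmo1 held 3 and 0 GC boxes. Such matches describe the letters only. The GC content was 66.0% for Mertk, 58.3% for Gas6, 66.7% for Pros1, 64.3% for Mfge8 and 50.7% for Timd4, against a median of 52.7% over all promoters.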

How the data were processed

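RNA was measured in 4 libraries, 2 of EGCG and 2 of Vehicle. Raw, unnormalised read counts for each gene were deposited by the authors in 1 table per replicate, after filtering paired-end reads from strand-specific libraries and aligning them with HISAT2 to GRCm38.p6. The counter, its strand setting, the annotation and how multi-mapping reads were treated are not given in the sources used here. Gene lengths are those in the deposited tables. Columns were assigned by treatment name, and replicate numbers through the study's own list of files.

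The tables were joined on the gene identifier (54532 genes). Unannotated loci, 697 and 329 in the tables of replicates 1 and 2, were not used. Positions of all 10 members equalled those of GENCODE mouse release 21. Counts were tested in R 4.3.3 with edgeR 4.0.16 (TMM, quasi-likelihood F test, two-sided, treatment only), with p adjusted by Benjamini-Hochberg over all 13811 genes, and with DESeq2 1.42.0 as an alternative. The fits of edgeR and DESeq2, each with and without the block, were tested on simulated data. In these data same-numbered libraries shared a difference between replicates. The changes put in were larger than the fold change of any member in the fit without the block. The fits returned the fold changes put in. At the adjusted threshold edgeR without the block called none of the changed genes, while both fits with the block called most of them. Power for smaller changes was not tested. Thresholds were an unadjusted p under 0.05 and an adjusted p under 0.1. The smallest two-sided p that a permutation of 2 against 2 libraries can give is 0.333, so p-values depend on the models. CPM and RPKM were computed here from the deposited counts. The members and lists were chosen with earlier results of these data known. Genes named are the members, their direct relatives, pathway genes with an unadjusted p under 0.05 in edgeR or DESeq2, the 3 genes of each list with the highest mean level per length, the most abundant and the absent markers, and markers named after their values were seen. Alternatives covered the test, the block, the normalisation, the filter, gene classes and each library left out.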

Additional observations from a re-analysis of the deposited data

How the results depend on the processing

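The replicate block moved the counts most. Genes with an unadjusted p under 0.05 numbered 444 with the replicate block in edgeR, against 16 without it, and 153 with it in DESeq2, against 24 without it. Genes with an adjusted p under 0.1 numbered 1 against 0 in edgeR and 7 against 1 in DESeq2. Engulfment members with p under 0.05 numbered 1 in edgeR with the block (Timd4) and 0 in DESeq2 with it, so the block changed no other member's call. Other pathway genes numbered 6 (5 higher) in edgeR and 5 (5 higher) in DESeq2 with the block, against 0 without it in each. Cd36, Trem2, Itgb3 and Anxa1 were in both sets, Pparg and Ptx3 in that of edgeR only and Gpr34 in that of DESeq2 only. Same-numbered libraries deviated together across genes (r = 0.641), but the labels do not say that a number marks a shared culture or day, so the numbers are treated as shared numbers only. With the block the log2 fold change of Mertk was 0.01 in edgeR and 0.00 in DESeq2, against -0.01.

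Without the block, genes with p under 0.05 numbered 38 with the newer edgeR dispersion method, 35 with all gene classes, 6 with filterByExpr and 3 with at least 10 counts in every library. With total counts only the log2 fold changes of Gas6 and Pros1 were -0.01 and -0.01, against 0.02 each. Over the alternatives that kept all libraries, 94 of the members' fold changes kept their sign and side of the threshold, 4 changed sign, and that of Timd4 passed the threshold in edgeR with the block.

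With each library left out in turn, a fit that assumes the lone library varies like the other group, genes with p under 0.05 ranged from 8 to 131, other pathway genes from 0 to 1 and members stayed at 0. Log2 fold changes ranged from -0.48 to 0.51 for Mertk, -0.29 to 0.11 for Itgav, -0.23 to 0.17 for Itgb5, -0.35 to 0.45 for Gas6, -0.32 to 0.36 for Pros1, -1.73 to 2.52 for Mfge8, -0.51 to 0.66 for Elmo1 and -0.06 to 0.29 for Dock1, all through 0, while Timd4 ranged from 0.40 to 1.49. The cause of these changes was not tested. Depth limits Gulp1 and, less so, Timd4.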
